A study of Mus musculus with 9 samples.

Results

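The livers of mice fed a high fat diet were set against the livers of mice fed chow, through 3 pools of each group, which are 6 of the 9 samples of the series. The 6 pools were taken by their labels alone, and no measured value entered that choice. All mice were male C57BL/6J, an inbred laboratory strain, aged 20 weeks, and no engineered allele is recorded for either group. Control mice ate chow for 17 weeks, with no gavage recorded. High fat diet mice ate D12451, with 45% of the energy as fat, for 17 weeks and received saline by gavage over the last 5 weeks, so diet and gavage cannot be told apart. Each pool mixed liver from 4 mice of its group and is recorded as a biological replicate, so 24 mice stand behind the comparison, and no value belongs to a single mouse. Pools from mice treated with metformin were left out.

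A diet rich in fat leads the liver to store triglyceride and alters how it makes and burns fatty acids and handles sterols, bile acids and glucose. Much of the array used here reads long noncoding RNAs, transcripts that code for no protein, some of which act on genes beside them and some of which carry small RNAs. Retinoids are the derivatives of vitamin A, which the liver stores: Dhrs3 and related enzymes interconvert retinal and retinol, and the Cyp26 enzymes break down retinoic acid, the form that binds nuclear receptors. Imprinted genes are read from the copy inherited from 1 parent, and several imprinted clusters hold long noncoding RNAs, among them Meg3 and Rian, which are read from the maternal copy of the cluster that also holds Dlk1, Rtl1 and Dio3.

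RNA was read on single-colour Agilent arrays, 1 per pool. Every level below is the log2 signal of a probe less the 75th percentile of its array, so a level of 0 is that percentile, and levels of different probes cannot be compared with each other. A probe was tested if it was above background on at least 3 of the 6 arrays, which left 60042 of 97836 probes. A probe above background in the pools of 1 group alone could thus be tested. On these arrays 56.0% to 63.5% of spots were well above background, and precision is limited by how few arrays there are. Control replicate 1 stood apart from the other controls. For 407 tested probes it exceeded the median of the remaining arrays by more than 2, against 19 to 59 such probes on any of the others, and it correlated with the other controls at 0.973 and 0.975 over all tested probes, where those correlated with each other at 0.990. High fat diet replicate 1 correlated with control replicate 3 at 0.986, above its 0.983 and 0.985 with the other high fat diet pools. It is also the pool that was hybridised on the slide of the controls (slide 1), while high fat diet replicates 2 and 3 were on another slide, so the change within slide 1 is given for the main transcripts, as high fat diet replicate 1 less the mean of the controls. Of the 15 hepatocyte markers 1 had a named probe, Hnf4aos, the antisense partner of the hepatocyte transcription factor gene Hnf4a. It was at 1.65 to 2.37 across the 6 arrays, well above background on each. Named probes of skeletal muscle read Mir1a-1hg and Mir133a-1hg, the host transcripts of muscle microRNAs. Mir1a-1hg was at -3.84, -3.38 and -3.12 in the controls and at -3.03, -3.12 and -2.46 in the high fat diet pools, above background on 1 control array, and Mir133a-1hg lay between -3.06 and -1.72 with groups that overlapped. Whether muscle RNA played a part in any result was not tested. The marker lists of 8 other cell types had no named probe, so the labelled tissue was checked through Hnf4aos alone.

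Few probes passed the test between the diets, and most of those that passed were lower on the high fat diet. With limma and Benjamini-Hochberg adjustment over all tested probes at 0.05, 30 of 60042 probes passed (0.05%), of which 7 were higher (0.0117%) and 23 lower (0.0383%). Changes of the lower probes ran from -4.50 to -1.48 on the log2 scale and those of the higher from 1.47 to 3.14. Among the 2610 genes that a named probe read, 474 coding and 2136 noncoding, 2 passed (0.0766%), both noncoding and both lower: Gm32342 and Gm38830. Before adjustment, 6244 probes (10.4%) had a p under 0.05, 2409 of them higher (4.01%) and 3835 lower (6.39%). With quantile normalization that split was 3164 higher and 3174 lower, and with normexp background correction 2541 and 2964. For 15.4% of probes all pools of 1 diet lay above all pools of the other (7.32% higher, 8.08% lower), and in 1088 of these (1.81%) the means also differed by at least 1 on the log2 scale, 213 higher (0.355%) and 875 lower (1.46%). In the brighter probes the non-overlapping ones were more often higher: 8.8% against 6.93% of the 15010 probes next below the brightest, and 7.63% against 4.72% of the brightest 15011. Where the means also differed by at least 1, more were lower in both sets: 35 higher against 137 lower, and 33 against 54. Fewer cells of a type and less RNA per cell cannot be told apart in liver pools such as these.

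**Figure D1:**
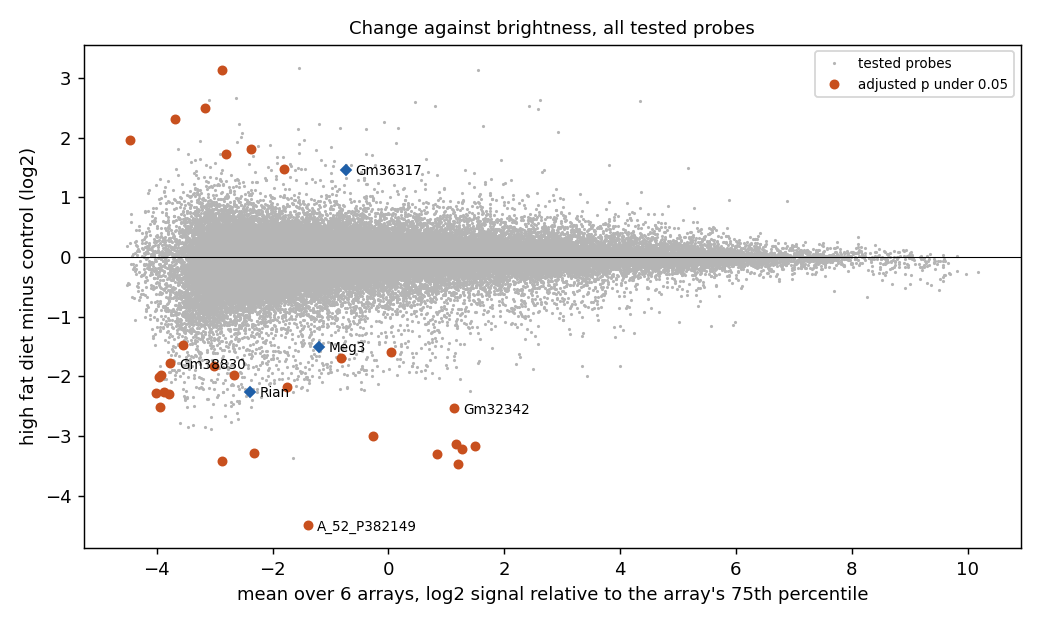
Change between high fat diet and control (log2, vertical) against the mean level over 6 arrays (log2 signal less the array's 75th percentile, horizontal) for each of 60042 tested probes. Orange points are the 30 probes with a limma adjusted p under 0.05, 7 above the zero line and 23 below it, and blue diamonds are the named transcripts Rian, Meg3 and Gm36317, which did not pass.

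The number of probes that passed rested on single pools. It was 11, 6 and 9 without control replicates 1, 2 and 3, and 108 (5 higher, 103 lower), 1 and 1 without high fat diet replicates 1, 2 and 3. With slide as a block 1 of 60042 probes passed, A_52_P382149. There 2506 had an unadjusted p under 0.05, a share below 0.05 of the probes, against 6244 (10.4%) without the block. Within slide 1 the changes of the 30 probes were 0.826 to 1.24 times those over the 6 pools. Both comparisons share high fat diet replicate 1 and the controls, and the sign within slide 1 was fixed in advance, since the groups of all 30 lie apart. Of the 30, 18 lay among the dimmest 15011 tested probes (6 higher, 12 lower) and 2 among the brightest 15011 (both lower).

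**Figure D2:**
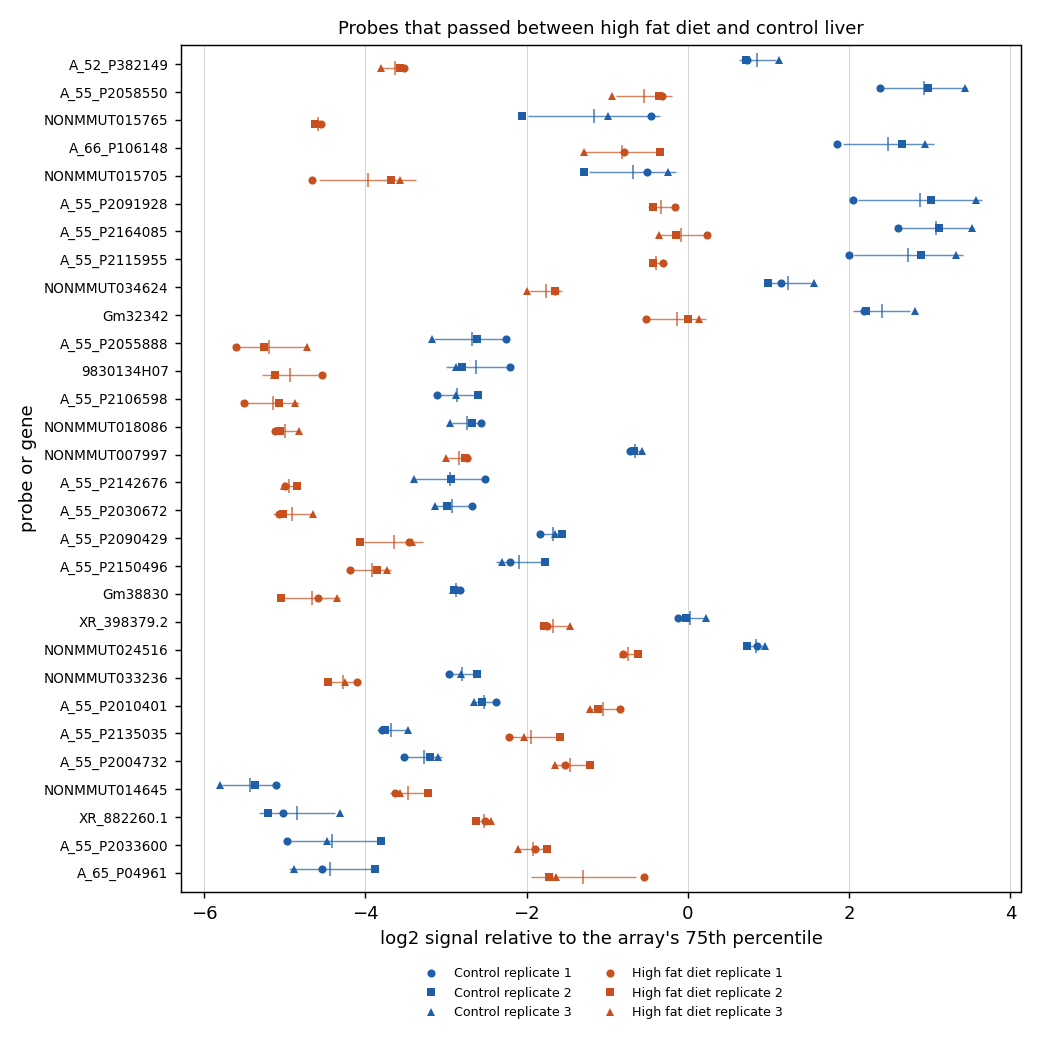
Levels (log2 signal less the array's 75th percentile, horizontal) of the 30 probes that passed, 1 row per probe, in the 3 control pools (blue) and the 3 high fat diet pools (orange), with symbols for replicate number, a tick at the group mean and a bar of 1 SD either side. In all 30 rows the groups lie apart, and in the 6 rows with a control mean above 2 the controls spread from 1.86 to 3.57 and the high fat diet pools from -1.29 to 0.23.

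Gm32342, a predicted noncoding RNA whose gene overlaps Exoc6, a subunit of a vesicle-tethering complex, and the retinoic acid hydroxylase gene Cyp26c1, and lies within 50 kb of the hydroxylase gene Cyp26a1, fell on the high fat diet. It was at 2.18, 2.21 and 2.81 in the control pools and at -0.53, -0.0020 and 0.14 in the high fat diet pools. Every array was above background, and the lowest control lay more than 2 above the highest high fat diet pool. The change was -2.53 (SE 0.25, limma adjusted p = 0.0324), a level 5.78-fold lower, from 2.40 ± 0.36 to -0.13 ± 0.35 (SD, n = 3 each). Within slide 1 it was -2.93. Gm32342 passed under 8 of 17 alternatives, with changes between -2.93 and -2.24. It passed without high fat diet replicate 1 (adjusted p = 0.0378) and did not without control replicates 1, 2 or 3 (0.110, 0.0866 and 0.0650) or high fat diet replicates 2 or 3 (0.101 and 0.126). With slide as a block the adjusted p was 0.168. A second Gm32342 probe was above background on 2 arrays and was not tested.

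The sequence before and at the start of Gm32342 is shown because this was the named transcript with the lowest adjusted p. It is the RefSeq promoter entry on GRCm38.p6, from 250 bases before the start to 50 after it, at chr19:37697497-37697796 on the minus strand, written 5′ to 3′ with matches to the searched motifs in capitals.
Gm32342: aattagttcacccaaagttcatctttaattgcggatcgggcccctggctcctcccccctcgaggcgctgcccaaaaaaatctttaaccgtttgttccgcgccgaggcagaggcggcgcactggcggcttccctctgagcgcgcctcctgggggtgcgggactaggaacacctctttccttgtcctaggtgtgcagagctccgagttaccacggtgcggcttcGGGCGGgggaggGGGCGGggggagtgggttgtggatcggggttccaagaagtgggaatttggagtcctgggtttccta
The motifs searched, on both strands, were the TATA box TATAAA, the CCAAT box CCAAT, the GC box GGGCGG, the nuclear receptor half-site AGGTCA and the E-box CACGTG. The Gm32342 window held 2 matches to GGGCGG, letters found in 35.7% of 32851 RefSeq promoter windows of this length, and no match to the other letters. It was 61.0% G or C with 21 CpG dinucleotides, where the median window had 52.7% and 7. A match is a description of the letters, and no binding was measured here. Only exact letters were searched, so variants such as agttca, which occurs near the left end of the window, were not counted.

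Gm38830, a predicted noncoding RNA within 50 kb of Chmp3, a subunit of the machinery that severs membranes, and Rnf103, a membrane-bound ubiquitin ligase gene, fell from just above background to below it. The controls were at -2.83, -2.91 and -2.91, and the high fat diet pools at -4.59, -5.05 and -4.36. No high fat diet array was well above background, so the fall is a bound: at least 2.54-fold lower (limma adjusted p = 0.0452). A bound of this kind starts from the mean of the brighter group. On each array of the dimmer group it takes the higher of the probe's own level and the lowest level well above background. It holds for the signal as processed here, and the change under another background correction can be smaller. Within slide 1 Gm38830 changed by -1.71. It passed under 4 of 16 alternatives. Leaving out any 1 of the 6 pools ended the call, with an adjusted p from 0.0538 (without high fat diet replicate 1) to 0.165 (without control replicate 1). Normexp background correction brought the change of Gm38830 to -0.36. It was run with an offset of 50 added to each signal, which by itself shrinks log2 changes of dim probes.

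The other 28 probes that passed have no gene name here, because their identifiers are those of Agilent's catalogue, of the NONCODE collection of noncoding RNAs, of a RIKEN clone, or of RefSeq transcripts outside the reference table. A_52_P382149 had the lowest p of all probes. It was at 0.73, 0.72 and 1.12 in the controls and at -3.53, -3.57 and -3.81 in the high fat diet pools, and no high fat diet array was well above background. The measured change was -4.50 (SE 0.18, limma adjusted p = 0.000284), 22.6-fold lower, and -4.39 within slide 1. Its bound is the same 22.6-fold, since its own levels lay above the lowest level well above background. A_52_P382149 passed under 15 of 16 alternatives, adding the metformin arrays to the fit being the exception (adjusted p = 0.0786). Among the 30 it was the 1 probe that passed without each of the 6 pools in turn. Normexp background correction brought its change to -2.47.

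NONMMUT034624, a NONCODE transcript, was at 1.15, 1.00 and 1.56 in the controls and at -1.65, -1.64 and -2.0 on the high fat diet, above background on every array. It fell by 3.00 on the log2 scale (SE 0.20, limma adjusted p = 0.00916). NONMMUT007997 was at -0.72, -0.67 and -0.57 in the controls and at -2.74, -2.76 and -3.0 on the high fat diet, and fell by 2.18 (SE 0.16, limma adjusted p = 0.0109). Pools of the same diet differed by less than 0.6 in both transcripts, while the diets lay at least 2 apart. NONMMUT018086 was at -2.57, -2.68 and -2.95 in the controls, and no high fat diet pool reached background. It was at least 2.82-fold lower (limma adjusted p = 0.0134), with a change of -0.53 under normexp background correction.

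Of the probes that fell, 6 had a control mean above 2, far from background: Gm32342, A_55_P2164085, A_55_P2058550, A_55_P2115955, A_66_P106148 and A_55_P2091928. They were grouped after their values were seen. Whether the unnamed ones read separate transcripts was not tested, so the number of probes may exceed that of transcripts. A_55_P2164085 was at 2.60, 3.11 and 3.53 in the controls and at 0.23, -0.15 and -0.36 on the high fat diet, and fell by 3.17 (SE 0.26, limma adjusted p = 0.0172). A_55_P2058550 was at 2.38, 2.98 and 3.43 against -0.32, -0.36 and -0.94, and fell by 3.47 (SE 0.29, limma adjusted p = 0.0172). In all 6 probes control replicate 1 was the lowest of the controls, and the highest high fat diet pool, at 0.23, lay below the lowest control, at 1.86. The 5 unnamed members kept changes between -3.75 and -2.70 over all alternatives.

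In 13 of the 23 lower probes no high fat diet array was well above background, and their bounds ran from 2.42-fold to 22.6-fold. The background filter kept these 13 through the control arrays alone, so being high in the controls was a condition of their test. NONMMUT015765 (at least 8.34-fold) and NONMMUT015705 (at least 9.26-fold) followed A_52_P382149, and their controls spread more widely, at -0.46, -2.06 and -0.99 for the first and at -0.51, -1.29 and -0.25 for the second. The other 10 were above background on all 6 arrays.

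Of the 7 higher probes, 4 were above background on no control array, 2 on 1 control array and 1 on all 6 arrays. The filter kept those 4 through the high fat diet arrays alone. A_65_P04961 was at -4.54, -3.88 and -4.89 in the controls and at -0.54, -1.72 and -1.63 on the high fat diet, at least 7.24-fold higher (limma adjusted p = 0.0459). High fat diet replicate 1 was the highest of its group by more than 1. A_55_P2033600 was at -4.97, -3.81 and -4.47 in the controls and at -1.90, -1.75 and -2.11 on the high fat diet, at least 4.46-fold higher (limma adjusted p = 0.0452). XR_882260.1, a RefSeq predicted noncoding transcript outside the reference table, rose at least 3.09-fold (limma adjusted p = 0.0365), to -2.52, -2.62 and -2.44. NONMMUT014645 rose at least 1.73-fold to -3.63, -3.23 and -3.57 (limma adjusted p = 0.0452), still among the dimmest probes tested. A_55_P2004732 was at -3.53, -3.20 and -3.10 in the controls, where 1 array was above background, and at -1.52, -1.22 and -1.65 on the high fat diet, a rise of 1.81 (SE 0.19, limma adjusted p = 0.0365). A_55_P2010401, named after its values were seen as the rise that was above background on all 6 arrays, was at -2.39, -2.56 and -2.65 in the controls and at -0.84, -1.11 and -1.22 on the high fat diet, a rise of 1.47 (SE 0.17, limma adjusted p = 0.0480).

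Among named genes the groups did not overlap for 495 of 2610 (19%; 7.70% higher, 11.3% lower), and 57 of these also differed by at least 1 (2.18%), 17 higher (0.651%) and 40 lower (1.53%). An unadjusted p under 0.05 was reached by 14.4% of named genes. Of the 20 with the lowest p, 10 in each direction, only Gm32342 and Gm38830 passed, and 19 are described here. The 10 higher ones had adjusted p-values of 0.0710 to 0.238 and changes of 1.00 to 1.46. Above background on all 6 arrays were 3 of the higher (Gm36317, Gm33702 and Serpina4-ps1) and 4 of the lower (Gm32342, Meg3, Gm39741 and Gm40467).

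**Figure D3:**
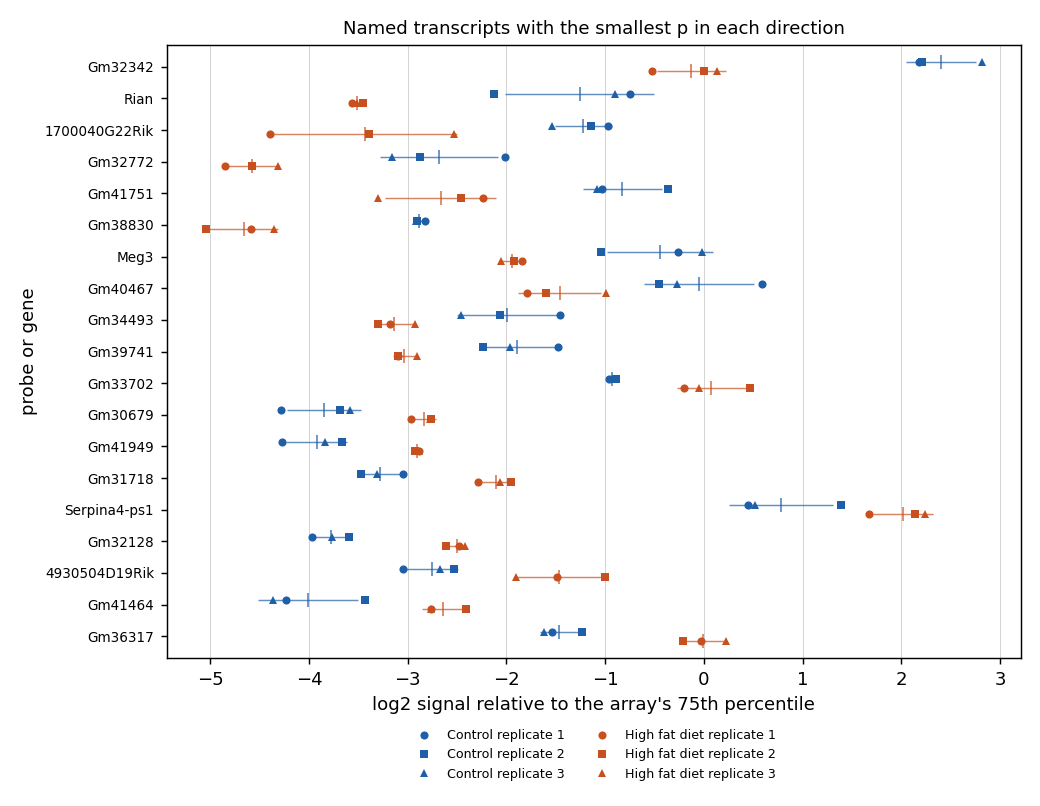
Levels (log2 signal less the array's 75th percentile, horizontal) of 10 named transcripts lower and 9 higher on the high fat diet, from those with the lowest p, in 3 control pools (blue) and 3 high fat diet pools (orange), with symbols for replicate number, a tick at the mean and a bar of 1 SD either side. The rows were chosen for groups that do not overlap, and Gm32342 and Gm38830 are the 2 that passed.

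Gm36317, a predicted noncoding RNA that overlaps the lipid transfer protein gene Vps13d and lies within 50 kb of the retinal reductase gene Dhrs3, had the lowest p of the higher ones. It was at -1.54, -1.24 and -1.62 in the controls and at -0.03, -0.21 and 0.22 on the high fat diet, a difference of 1.46 (SE 0.19, limma adjusted p = 0.0710) and of 1.43 within slide 1. Its pools lay within 0.5 of each other in each group. The noncoding 4930504D19Rik, within 50 kb of the retinoic acid hydroxylase gene Cyp26b1, was at -3.05, -2.54 and -2.68 in the controls and at -1.49, -1.0 and -1.91 on the high fat diet (1.29, SE 0.26, limma adjusted p = 0.175), with 2 control arrays above background.

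Serpina4-ps1, a transcribed pseudogene in a cluster of protease inhibitor genes with Serpina5, Serpina3a, Serpina12 and Serpina3b within 50 kb, was well above background on every array. It was at 0.45, 1.39 and 0.51 in the controls and at 1.67, 2.14 and 2.24 on the high fat diet (1.23, SE 0.28, limma adjusted p = 0.238). Probes of this cluster can share sequence with close paralogs, so the value is uncertain as to the gene read. Gm32128, near the phosphatase subunit gene Ppp2r5a, was above background on no control array and on all high fat diet arrays, at least 2.40-fold higher (limma adjusted p = 0.0790).

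Gm31718, a predicted noncoding RNA near the mitochondrial import receptor gene Tomm20, differed by 1.17, and Gm41464, a predicted noncoding RNA near the haem synthesis gene Cpox, by 1.37. Gm41949, a noncoding RNA that overlaps Ubxn4, and Gm30679, a predicted protein-coding gene that overlaps the spermine oxidase gene Smox, were above background on no control array and at least 1.88-fold and 1.87-fold higher. Gm33702, a predicted noncoding RNA above background on all 6 arrays, was at -0.96, -0.89 and -0.94 in the controls and at -0.20, 0.47 and -0.05 on the high fat diet (1.00, SE 0.20, limma adjusted p = 0.182).

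Among the lower named transcripts beyond the imprinted Rian and Meg3, Gm41751 overlaps the protease inhibitor genes Spink10 and Spink13. It was at -1.03, -0.37 and -1.08 in the controls and at -2.24, -2.46 and -3.30 on the high fat diet (-1.84, SE 0.31, limma adjusted p = 0.139). The noncoding 1700040G22Rik was at -0.97, -1.15 and -1.54 against -4.40, -3.39 and -2.53 (-2.22, SE 0.42, limma adjusted p = 0.167), with 1 high fat diet array above background and pools of that diet nearly 2 apart. Gm32772 was at least 2.92-fold lower, with no high fat diet array above background (limma adjusted p = 0.130). Gm40467 was at 0.59, -0.45 and -0.28 against -1.79, -1.60 and -0.99 (-1.42, SE 0.31, limma adjusted p = 0.231). Gm39741, near the Integrator subunit gene Ints7, and Gm34493 both differed by -1.14.

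Of 15 imprinted noncoding RNAs, 7 were tested and 0 passed in limma, 3 with an unadjusted p under 0.05 and groups apart (Rian, Meg3 and Kcnq1ot1; 14.4% and 19% of all named genes), with 2 higher and 5 lower and a median difference of -0.49, where all named genes had a median of -0.06 (1121 higher, 1489 lower). Rian, which hosts small nucleolar RNAs and microRNAs, was at -0.75, -2.12 and -0.90 in the controls and at -3.57, -3.46 and -3.51 on the high fat diet. No high fat diet array was well above background. The bound for Rian, 4.77-fold lower, equals its measured fold (limma adjusted p = 0.117). Control replicate 2 was the lowest control by more than 1, and without it the difference was -2.69 and passed (adjusted p = 0.0179). Meg3, upstream of Rian in the same cluster, was at -0.26, -1.05 and -0.02 in the controls and at -1.85, -1.92 and -2.06 on the high fat diet, above background on every array (-1.5, SE 0.26, limma adjusted p = 0.151). Its lowest control was again replicate 2. Within slide 1 the differences were -2.31 for Rian and -1.41 for Meg3, and with normexp background correction they were -1.03 and -0.91. A second Rian probe, from a RIKEN clone, was above background on no array.

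Promoter windows of Meg3 and Rian are shown because these transcripts had the largest differences in the imprinted list, both in the same direction. They are RefSeq entries on GRCm38.p6 on the plus strand, at chr12:109540746-109541045 for the first start of Meg3 and chr12:109603695-109603994 for Rian, written 5′ to 3′ with the same motifs in capitals.
Meg3: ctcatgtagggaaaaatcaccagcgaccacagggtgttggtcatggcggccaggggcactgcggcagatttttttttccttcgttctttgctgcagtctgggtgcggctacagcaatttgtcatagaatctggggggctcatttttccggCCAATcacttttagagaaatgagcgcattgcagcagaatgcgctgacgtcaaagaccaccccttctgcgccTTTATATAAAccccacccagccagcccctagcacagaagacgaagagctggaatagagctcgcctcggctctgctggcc
Rian: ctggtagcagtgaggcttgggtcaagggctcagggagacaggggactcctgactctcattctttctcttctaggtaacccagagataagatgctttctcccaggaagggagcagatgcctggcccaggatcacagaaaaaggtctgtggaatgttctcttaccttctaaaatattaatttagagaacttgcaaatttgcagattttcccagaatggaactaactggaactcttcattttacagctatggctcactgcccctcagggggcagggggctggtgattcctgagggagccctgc
The Meg3 window held 1 CCAAT match and a stretch in which TATAAA matches on both strands overlap, counted as 2. Of all windows 13.6% held TATAAA and 37.4% held CCAAT. The Meg3 window had 13 CpG dinucleotides. A second Meg3 start in the same table had 1 CpG, 1 AGGTCA match and no TATAAA or CCAAT match. The Rian window held no match to the 5 motifs and no CpG.

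The other 5 transcripts of the imprinted list differed less. Kcnq1ot1, the antisense RNA of the Kcnq1 cluster, was at -1.12, -1.21 and -1.19 in the controls and at -1.26, -1.98 and -2.65 on the high fat diet (-0.79, SE 0.31, limma adjusted p = 0.432). High fat diet replicate 1, the pool on the controls' slide, lay within 0.2 of every control, and the difference within slide 1 was -0.09. Ftx, from the X inactivation centre, differed by 0.24, Igf2os by -0.49 and Peg13 by -0.14, with groups that overlapped. Ftx is X-linked and lies in no autosomal imprinted cluster, though it was counted in the list and its median. Airn, the antisense RNA of the Igf2r cluster, differed by 0.39 in both of its tested probes, with groups that overlapped in the brighter probe and lay apart in the other (limma adjusted p = 0.538 and 0.543).

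**Figure D4:**
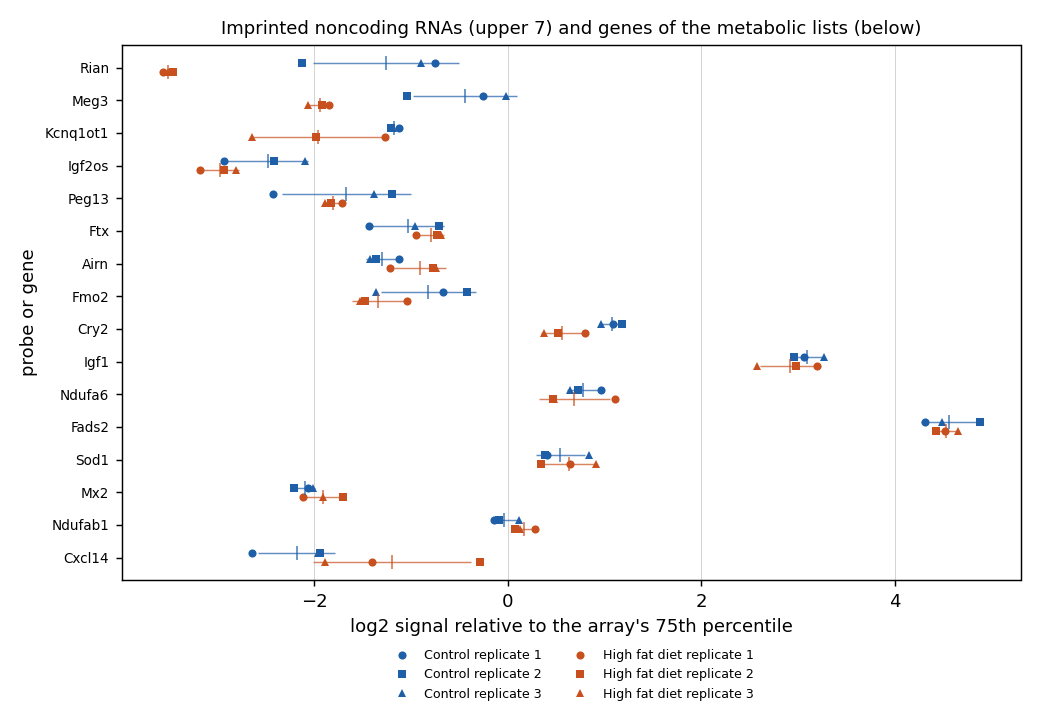
Levels (log2 signal less the array's 75th percentile, horizontal) of the 7 tested imprinted noncoding RNAs (upper rows) and of 9 tested members of the metabolic, clock and inflammation lists (lower rows) in 3 control pools (blue) and 3 high fat diet pools (orange), with symbols for replicate number, a tick at the mean and a bar of 1 SD either side. Rian, Meg3, Kcnq1ot1, Cry2 and Cxcl14 have groups that do not overlap, and none of the 16 passed.

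Lists of coding genes of lipid, sterol, glucose and energy metabolism, of the clock, of stress and of inflammation had 0 to 2 tested members each, 10 in all. Limma called 0 of the 10, and 2 had an unadjusted p under 0.05 and groups apart (14.4% and 19% of all named genes), Cry2 of the clock list and Cxcl14 of the inflammation list. The 4 lists of bile acid handling, cholesterol synthesis, lipid droplets and fibrosis had no named probe. Except for Mx2, each was read through a RIKEN clone probe matched to the gene by the name of the clone. Whether such a probe reads the coding transcript was not tested, so the levels below are those of clone probes. Fads2, a desaturase of polyunsaturated fatty acids, was at 4.31, 4.88 and 4.49 in the controls and at 4.51, 4.42 and 4.65 on the high fat diet (-0.03, SE 0.19). Its groups overlapped, with an adjusted p of 0.992. Igf1, the growth factor that the liver secretes, was at 3.06, 2.96 and 3.27 against 3.20, 2.98 and 2.58 (-0.18, SE 0.20), with a difference of 0.10 within slide 1. Sod1, the cytosolic superoxide dismutase, differed by 0.09 (SE 0.21), Ndufab1 and Ndufa6 of respiratory complex I by 0.20 (SE 0.16) and -0.09 (SE 0.22; 0.33 within slide 1), and the flavin monooxygenase Fmo2 by -0.52 (SE 0.27).

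Groups lay apart for 2 of these genes. Cry2, a repressor of the circadian clock, was at 1.08, 1.18 and 0.96 in the controls and at 0.79, 0.52 and 0.37 on the high fat diet (-0.51, SE 0.17, limma adjusted p = 0.363), and within slide 1 the difference was -0.28. Cxcl14, a chemokine, was at -2.64, -1.94 and -1.96 in the controls and at -1.41, -0.29 and -1.89 on the high fat diet (0.99, SE 0.39, limma adjusted p = 0.435). High fat diet replicate 3 lay within 0.1 of 2 controls. Mx2, an interferon-induced gene that the reference table gives as a transcribed pseudogene, differed by 0.19 (SE 0.17).

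Among widely studied long noncoding RNAs 17 of 45 were tested and 0 passed in limma, 3 with an unadjusted p under 0.05 (14.4% of all named genes), with 4 higher and 13 lower and a median of -0.14. The 17 include Ptprd (-0.25), read through a RIKEN clone probe. The reference table gives Ptprd as protein-coding, though it was counted in the list and its median. Groups lay apart for 4 of the 17, against 19% of all named genes: Rian, Meg3, Kcnq1ot1 and Fendrr, a developmental noncoding RNA near background here (0.38, SE 0.18, limma adjusted p = 0.527). Norad, which holds Pumilio proteins, was at 3.40, 3.59 and 3.64 against 3.53, 3.30 and 3.62 (-0.06, SE 0.17), and Neat1, the scaffold of nuclear paraspeckles, was at -0.79, -2.32 and -1.70 against -1.59, -2.25 and -1.73 (-0.25, SE 0.37). Control replicate 1 was the highest array for Neat1. Gm15441, an antisense RNA of the thioredoxin-interacting protein gene Txnip, was at 2.56, 1.04 and 1.54 against 1.67, 2.13 and 2.37 (0.35, SE 0.37), again with control replicate 1 above every other array. Of 20 host genes of small nucleolar RNAs 7 were tested, with a median of 0.05 and groups that overlapped in all 7. Of 20 microRNA host transcripts 7 were tested and 0 passed in limma, 5 higher and 2 lower, with a median of 0.15. An unadjusted p under 0.05 and groups apart were found for 2 of the 7 (14.4% and 19% of all named genes). They were Rian, counted in this list too, and Mir1a-1hg (0.58, SE 0.25, limma adjusted p = 0.477). The nearest pools of the 2 diets were both at -3.12 for Mir1a-1hg. Mir22hg, the host of miR-22, was at 3.64, 3.77 and 4.09 against 3.92, 3.74 and 4.29 (0.15, SE 0.21).

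Because few coding genes had a name, named noncoding transcripts at most 50 kb from a listed gene, or overlapping it, were read as its neighbours. Position beside a gene says nothing of that gene's own level. Apart from retinoid genes, given last, the lists had 55 tested neighbours. Limma called 0 of the 55, while 11 had an unadjusted p under 0.05, 12 had groups apart and 33 were lower. Rian and Meg3, described above, count in each of these last 3 numbers, as neighbours of Rtl1. Of all 2136 named noncoding genes, 334 had an unadjusted p under 0.05, 423 had groups apart and 1249 were lower. The 8 transcripts beside genes that make fatty acids and triglyceride had a median of -0.09, and the 7 beside genes that oxidise fatty acids a median of -0.01. Gssos2, which lies by the acetate-activating enzyme gene Acss2 and the glutathione synthetase gene Gss, was at -0.67, -0.67 and -0.38 in the controls and at -1.51, -1.43 and -1.11 on the high fat diet (-0.78, SE 0.18, limma adjusted p = 0.241). Gm29917, by the desaturase gene Fads2, was at -1.89, -0.67 and -0.87 against -2.24, -2.22 and -1.57 (-0.87, SE 0.34), with groups that overlapped.

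Neighbours of bile acid genes were 3. Gm30843, by the organic anion transporter gene Slco1a1, was at 3.72, 2.96 and 3.36 in the controls and at 2.83, 2.50 and 2.91 on the high fat diet (-0.60, SE 0.23, limma adjusted p = 0.417). Gm42324, by Nr0b2, the nuclear receptor that represses bile acid synthesis, was at -1.55, -2.13 and -2.07 against -3.10, -2.44 and -2.55 (-0.78, SE 0.24, limma adjusted p = 0.319). The gap between the groups was under 0.4 in both.

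Neighbours of glucose metabolism genes were 6, with 3 higher and 3 lower. Besides Gm32128, groups lay apart for Gm39813 by the glycerol phosphate dehydrogenase gene Gpd2 (0.35, SE 0.16, limma adjusted p = 0.514) and Gm34705 by the glycogen-targeting phosphatase subunit gene Ppp1r3b (-0.41, SE 0.15, limma adjusted p = 0.410). Gm36565, by the growth factor binding protein gene Igfbp1, was at -4.09, -3.12 and -2.96 in the controls and at -3.93, -5.07 and -5.25 on the high fat diet, with 3 of 6 arrays above background and groups that overlapped. By the clock repressor gene Bhlhe41, Gm32675 was at -0.30, -0.28 and -0.21 against -0.10, 0.36 and 0.24 (0.43, SE 0.17, limma adjusted p = 0.443). By the acute phase genes Saa1, Saa2 and Saa3, Gm31882 was at -0.85, -0.87 and -1.13 against -0.66, -0.72 and -0.70 (0.26, SE 0.16, limma adjusted p = 0.660).

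Retinoid genes were added as a list after Cyp26a1, Dhrs3 and Cyp26b1 had been noticed beside Gm32342, Gm36317 and 4930504D19Rik, so these 3 support nothing by being in it. Its 8 tested neighbours were 3 higher and 5 lower with a median of -0.06, the same to 2 decimals as that of all named noncoding genes. Gm40805, by the retinol dehydrogenase gene Rdh7, was at -1.11, -0.27 and -0.72 in the controls and at -1.68, -0.98 and -1.72 on the high fat diet (-0.76, SE 0.28, limma adjusted p = 0.398), with groups that overlapped. Rbm46os by Lrat, which esterifies retinol for storage, differed by -0.23 (SE 0.20), Gm15401 by the retinol saturase gene Retsat by -0.12 (SE 0.19), and 1600029O15Rik by Stra6, a retinol transporter gene, by 0.18 (SE 0.18). E030003E18Rik, by the retinal dehydrogenase gene Aldh1a1, differed by -0.0035 (SE 0.30). In these 4 the groups overlapped as well.

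**Figure D5:**
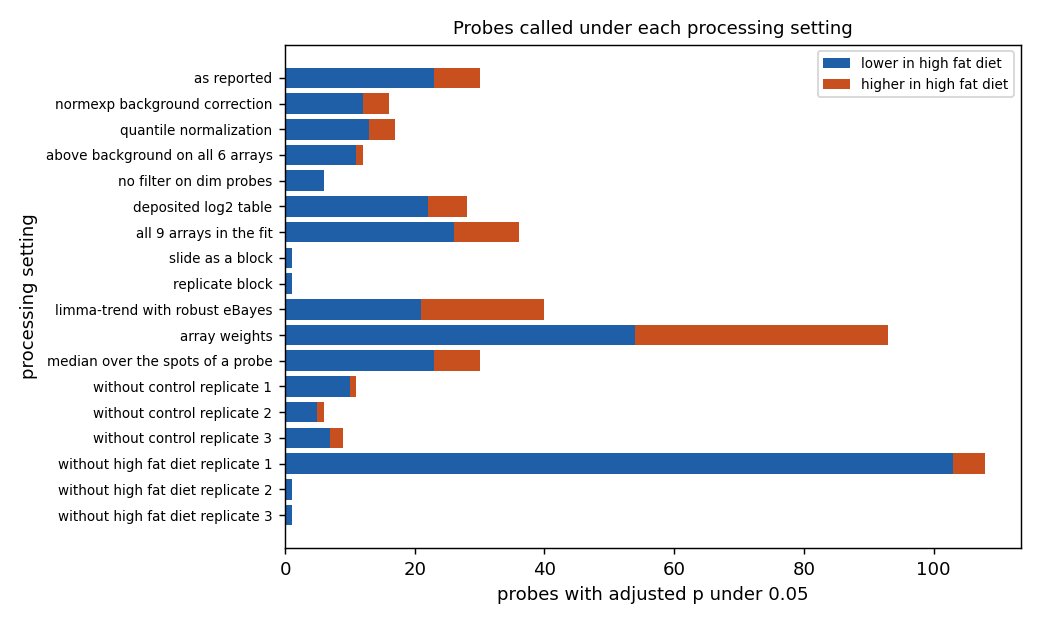
Number of probes with a limma adjusted p under 0.05 (horizontal) under each processing setting (vertical), split into lower (blue) and higher (orange) on the high fat diet. The counts run from 1, with slide or replicate number as a block or without high fat diet replicate 2 or 3, to 108 without high fat diet replicate 1, against 30 as reported.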

How the data were processed

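Liver RNA of 3 control and 3 high fat diet pools, grouped by sample title, was compared. Per the file headers, the authors extracted intensity values with Agilent Feature Extraction 11.5.1.1 (10.7 per the submitters' processing notes); the deposited processed signal is background-subtracted. The deposited log2 table equals its log2 less 1 constant per array (within 0.01 for 100% of probes, column medians -2.37 to -2.16), so its scale, centring and direction are known. The header's build field names mm9, whereas names and neighbours came from a RefSeq table on GRCm38.p6. Names were found through RefSeq accessions (4658 probes), RIKEN clones (1256) and identifiers (18).

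Outlier spots were removed (73 to 172 per array), no spot was saturated, and log2 signals were averaged per probe, less the 75th percentile of the array. A probe was above background on an array if 0.5 or more of its spots were. Of 60075 probes that passed on 3 of 6 arrays, 33 lacked a value. The test was that of limma 3.58.1 (R 4.3.3, lmFit and eBayes; 4 residual and 4.29 prior degrees of freedom), checked on simulated data; SE is that of the fit, with a median of 0.20. Permuting 3 pools against 3 allows no two-sided p under 0.1 for 1 probe.

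The brightest tested probe stood for a gene. Text names every named gene that passed, the 10 named genes with the lowest p in each direction (groups apart, change of at least 1), 5 unnamed probes in each direction, and list members with groups apart or an unadjusted p under 0.05, with coding members; some items are not reported here. The members and lists were chosen with earlier results of these data known. Same-numbered pools did not deviate together (correlations -0.10, -0.0066 and 0.03), so numbers were not taken as pairs.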

Additional observations from a re-analysis of the deposited data

How the results depend on the processing

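The count of 30 probes became 16 with normexp background correction (run on the median signal, as no mean signal column was found), 17 with quantile normalization, 12 among probes above background on all 6 arrays (1 higher, 11 lower), 6 without a filter on dim probes (0 higher) and 93 with array weights (39 higher, 54 lower). It was 1 with slide as a block and 1 with the replicate block, which fits the replicate number as a pair, although 6110 probes there had an unadjusted p under 0.05. Leaving out 1 pool gave 1 to 108 probes. With the deposited log2 table, all 9 arrays, limma-trend with robust eBayes (19 higher, 21 lower) and the median over spots it was 28, 36, 40 and 30. Of the 30 probes, 11, 16, 17 and 18 also passed with normexp, quantile normalization, all 9 arrays and limma-trend. The 53 probes and genes followed under all alternatives kept their sign, which their groups, lying apart, largely fixed. Of 100 list members and neighbours, 29 had the other sign with slide as a block. All 29 had groups that overlapped, which was fixed in advance, since the sign cannot change where groups lie apart. Among the 29 were Igf1 (0.10), Ndufa6 (0.33), Mx2 (-0.02), Neat1 (0.01), Gm15441 (-0.04) and E030003E18Rik (0.41). The cause of these shifts was not tested. Signal over background limits the dim probes: where all arrays of a group were at background, the size of a change is a bound. Such changes were up to 4.93 times smaller with normexp (Gm38830). That setting added an offset of 50 to each signal, which by itself shrinks log2 changes of dim probes. How much of the reduction came from the offset was not tested. Pools, not single mice, carry the spread.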
